A study of Mus musculus with 4 samples.

Results

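The replication-dependent histone genes are described here in 4 RNA-seq libraries made from RAW264.7, a macrophage line of the mouse. The members were taken by symbol, as every gene whose name starts with Hist1h, Hist2h, Hist3h or Hist4h, and 65 of the 17655 genes in the deposited table met this rule. They comprise 5 H1, 18 H2A, 18 H2B, 12 H3 and 12 H4 genes. The rule uses no measured value. It takes in a few genes that only carry a clustered histone name, such as the testis histone gene Hist1h2ba and the pseudogene Hist3h2bb-ps.

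All cells were made permeable with digitonin and then kept for 24 h with a ligand or its control. The first control received ultrapure water (water), and the second received water that had passed through a mock extraction of free oligosaccharides (mock extraction). The ManGn library received 10 µM of the disaccharide Manβ1-4GlcNAc in water, and the fOS library received 10 µM of the free oligosaccharide pool of Trex1-/- cells, also in water. ManGn was compared with water and fOS with the mock extraction. Each condition has 1 library, from a line used at passages 2 to 10, so no difference below has a replicate check, a standard error or a p-value.

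Replication-dependent histone genes supply the bulk of the histones that package new DNA during S phase. Most lie in clusters, have no introns and give an mRNA that ends in a conserved stem-loop rather than a poly(A) tail. The stem-loop binding protein Slbp and the U7 small nuclear ribonucleoprotein recognise this 3′ end, and the mRNA is degraded when DNA synthesis stops. Some members can also give a longer polyadenylated mRNA in cells that do not divide. Libraries made from poly(A) RNA capture the stem-loop form poorly. The labels name total RNA, and the selection used before sequencing is not given in the sources used here.

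The 3′ end of the members was read from the mouse GENCODE M21 transcripts. A match was GGNNNT with pyrimidines at each N, a loop of 4 bases that starts with T, and the reverse complement of the first 6 bases, on the sense strand within 200 nt after the stop codon. It was present in 42 of the 64 members with a coding transcript (65.6%) and in 5 of 21810 other genes (0.0229%). The 5 other genes were H2afx, H2bfm, Ly6f, Slc23a4 and Ss18, of which H2afx encodes the histone variant H2A.X. Many listed transcripts stop close to the coding sequence. Among the 45 members with 60 or more nt after the stop codon, 40 held the match (88.9%). The examples below are given as DNA, with the 16 bases of the stem-loop in capitals and up to 5 flanking bases on each side in lower case, because they show what the 5 types share.
Hist1h1c: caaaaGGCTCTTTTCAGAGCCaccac
Hist2h2aa1: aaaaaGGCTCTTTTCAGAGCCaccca
Hist1h2bj: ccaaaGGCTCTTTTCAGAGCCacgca
Hist2h3c1: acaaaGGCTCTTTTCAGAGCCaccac
Hist1h3g: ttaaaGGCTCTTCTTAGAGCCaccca
Hist1h4i: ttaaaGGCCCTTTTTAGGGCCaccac
Hist4h4: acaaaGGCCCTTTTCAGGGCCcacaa
The stem-loop began 22 to 59 nt after the stop codon. All stem-loops of H1 (3 genes), H2A (11), H2B (8) and H3 (9) had a GGCTCT stem, whereas 10 of the 11 in H4 genes had GGCCCT, and Hist1h4j had GGTCCT. The loops differed between members, as between Hist1h3g and Hist2h3c1. The letters were not found after the stop codon of the listed transcripts of Hist1h2bc and Hist2h2be, which run on for 742 and 2192 nt. These are the H2B genes with the highest levels in the libraries. The match was also not found for Hist1h2bq, Hist1h2br and Hist1h2bp, whose transcripts run on for 150 to 823 nt and whose levels stayed low. Transcript ends were measured past the stem-loop, or past the stop codon where none was found. With an end at least 100 nt past it, 11 of 27 members reached an FPKM, the level defined below, of 1. With a nearer end 14 of 37 did, and FPKM 5 was reached by 4 and 1 in the same order. These counts depend on the annotation. RefSeq gives Hist1h1c 725 nt and Hist3h2a 508 nt in all, where GENCODE lists 880 and 1700 nt after the stop codon alone. A link between the 3′ end and detection was not tested.

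Many members have close to identical coding sequences, which limits what a value for a single gene means. Reads from a stretch shared by several members are divided between them by the estimation step of RSEM. Of all 49-base windows in a member's coding sequence, a median of 75.9% over 64 members were also present in another member, and 49 of the 64 members shared at least 50% of their windows. The median share was 22.2% in H1, 83.4% in H2A, 80.8% in H2B, 85% in H3 and 69.3% in H4. Hist2h2aa1 and Hist2h2aa2 shared 100% of their windows with each other, as did Hist1h2ao and Hist1h2ap, and Hist2h3c1 and Hist2h3c2. By contrast, Hist2h2be, Hist2h2bb, Hist3h2ba, Hist4h4, Hist1h1a and Hist1h1b shared 0%, so no stretch of this length in their coding sequence occurs in another member. The length of the reads is not given in the sources used here.

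Promoters were read from RefSeq for GRCm38.p6, from 250 bases before to 50 bases after the annotated start, and 60 promoters of 59 members were matched. CCAAT, searched on both strands, was present in 52 of the 60 (86.7%) against 37.4% of all 32851 promoters. TATAAA, on the sense strand, was present in 50% against 8.32%, and ATTTGCAT, the octamer bound by Oct-1, searched on both strands, was present in 21.7% against 1.74%. The types differed in these letters. All H1, H2A, H2B and H3 promoters held CCAAT, but 27.3% of the 11 H4 promoters did, while 72.7% of the H4 promoters held TATAAA. The octamer was found in 38.9% of H2A and 37.5% of H2B promoters, and in 0 of those of H1, H3 and H4. None of these motifs contains another. The promoters of Hist1h1c, the leading H1 gene, of Hist2h2aa1, which had its higher values with the ligands, and of Hist3h2a, which had its lower values there, are shown with the matches in capitals.
Hist1h1c, chr13:23738557-23738856, plus strand: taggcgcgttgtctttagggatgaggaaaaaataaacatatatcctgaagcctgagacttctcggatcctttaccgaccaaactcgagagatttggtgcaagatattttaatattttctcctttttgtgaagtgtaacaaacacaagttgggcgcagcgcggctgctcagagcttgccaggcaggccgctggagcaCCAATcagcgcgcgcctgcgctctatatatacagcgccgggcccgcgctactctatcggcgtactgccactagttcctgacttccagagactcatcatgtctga
Hist2h2aa1, chr3:96245247-96245546, plus strand: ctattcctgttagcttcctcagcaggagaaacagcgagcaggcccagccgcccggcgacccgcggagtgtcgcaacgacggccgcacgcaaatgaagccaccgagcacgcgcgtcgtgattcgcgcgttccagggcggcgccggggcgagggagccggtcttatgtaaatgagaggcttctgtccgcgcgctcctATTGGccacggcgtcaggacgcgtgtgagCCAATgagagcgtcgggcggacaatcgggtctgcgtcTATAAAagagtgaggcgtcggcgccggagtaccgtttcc
Hist3h2a, chr11:58954435-58954734, plus strand: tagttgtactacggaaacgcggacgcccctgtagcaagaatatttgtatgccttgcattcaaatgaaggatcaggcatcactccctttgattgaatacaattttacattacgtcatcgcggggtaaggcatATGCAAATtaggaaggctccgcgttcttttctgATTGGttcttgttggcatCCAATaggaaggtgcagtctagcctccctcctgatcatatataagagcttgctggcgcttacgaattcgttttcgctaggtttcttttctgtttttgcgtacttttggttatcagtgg
With the annotated start as position 0, Hist1h1c held CCAAT from position -54. Hist2h2aa1 held ATTGG, the reverse complement of CCAAT, from position -55, CCAAT itself from -26 and TATAAA from position 11. Hist3h2a held the reverse complement of the octamer from position -119, ATTGG from -86 and CCAAT from -68.

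Levels are given as FPKM, fragment numbers scaled to transcript length and library size, which the authors computed with RSEM. The table gives no totals of reads. The depth of each library was therefore estimated from the steps that whole reads leave among low FPKM values. It came to about 10150000 reads with water, 10360000 in the mock extraction, 10415000 after ManGn and 10965000 after fOS. At this depth 1 read on a 500-nt transcript, close to the median member length of 492 nt, is worth an FPKM of 0.198 to 0.214. Read numbers below are estimates from FPKM, transcript length and depth, and their exact 95% Clopper-Pearson intervals cover counting error only. Macrophage identity was checked with 6 of 8 listed markers, as Adgre1 and Spi1 were not found by symbol. The 6 were all at FPKM 1 or more in every library and summed to 7840 to 8860. Lyz2 held most of this sum, at 6202.07 to 7250.06. Among the 6, only Itgam reached 2-fold in a ligand comparison, with lower log2 ratios of -1.05 for ManGn and -1.61 for fOS. Lyz2 and Itgam were named after their values were seen. The 5 markers of other cell types in the table stayed under FPKM 1, and 2 of them were at 0 in all 4 libraries.

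Most histone genes were at or close to the limit of detection. Of the 65 members, 25 reached FPKM 1 in at least 1 library, 31 lay between 0 and 1, and 9 were listed at 0 in all 4 libraries. Only 5 reached FPKM 5, namely Hist1h2bc, Hist1h1c, Hist2h2aa1, Hist2h2be and Hist3h2a. Values above 0 were listed for 37 members with water, 32 in the mock extraction, 32 after ManGn and 35 after fOS. FPKM of at least 1 was reached by 17, 16, 13 and 11 members in the same order. Of the 25 members at FPKM 1, 12 reached it in a single library, which was water for 6, the mock extraction for 4, ManGn for 1 and fOS for 1. The highest of the 4 values was in the water library for 11 of the 25, in the mock extraction library for 8, with ManGn for 5 and with fOS for 1. For the 12 members at FPKM 1 in a single library, the filter fixed which library was highest. The tally therefore carries no support for a change of the group.

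**Figure D1:**
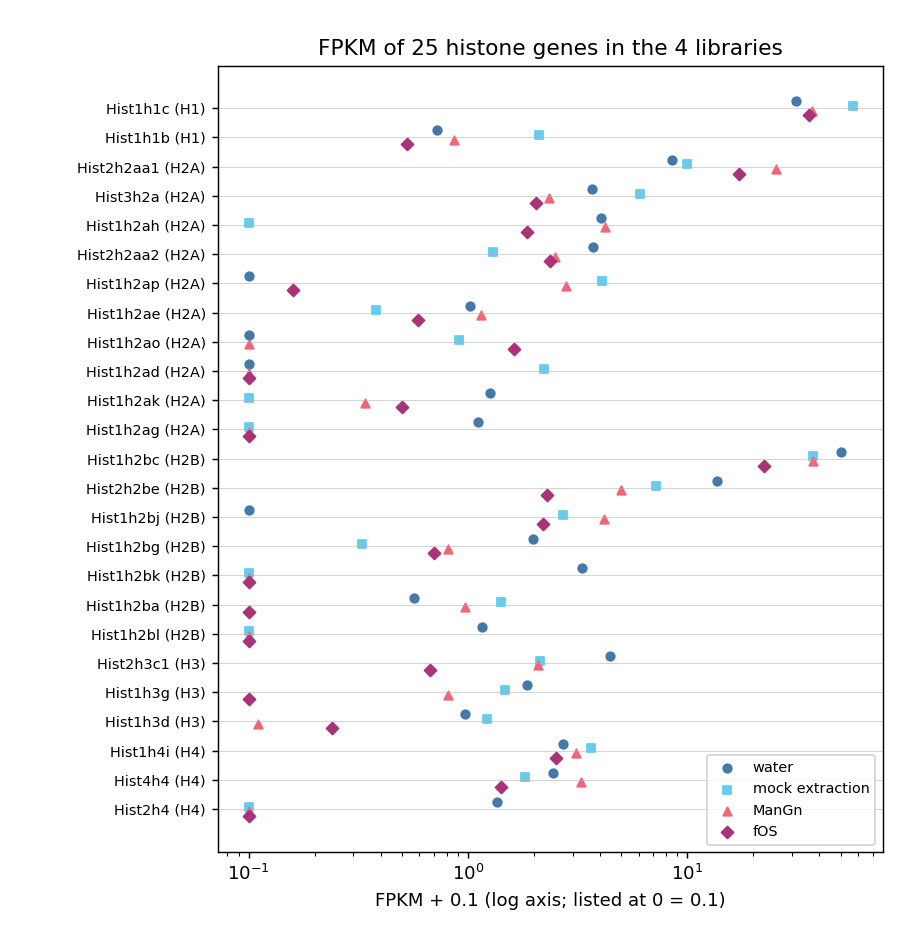
FPKM plus 0.1 on a log axis for the 25 histone genes that reached FPKM 1 in at least 1 library, with 1 point per library (circle water, square mock extraction, triangle ManGn, diamond fOS). Hist1h2bc and Hist1h1c lie highest, and the fOS diamond is the highest of the 4 points for 1 gene only. The filter itself fixes the highest point of each gene that reached FPKM 1 in 1 library only.

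Summed over all 65 members, FPKM was 143 with water, 146 in the mock extraction, 138 after ManGn and 97.2 after fOS. The fOS library was thus the lowest and the others lay close together. In estimated reads, which give long transcripts such as that of Hist2h2be more weight than FPKM does, the sums were 1390, 1260, 1140 and 809. The ratio of reads was 0.608 for fOS against the mock extraction (95% interval 0.556 to 0.664) and 0.799 for ManGn over water (0.738 to 0.865). The controls themselves differed by a ratio of 0.885 for the mock extraction over water (0.819 to 0.956). In such bulk libraries fewer cells in S phase, less histone mRNA per cell and a lower capture of this mRNA cannot be told apart. Hist1h1c, Hist1h2bc, Hist2h2aa1 and Hist2h2be made up 71.9% to 79.4% of the summed FPKM. Without these 4 genes the ratio of reads was 0.563 (0.44 to 0.717) for fOS against the mock extraction, and 0.827 (0.672 to 1.02) for ManGn over water.

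The types did not share 1 pattern. H1 was highest in the mock extraction library, H2A was highest with ManGn, and H2B and H3 were highest with water and lowest with fOS. In the fOS library H2B made up 28.7% of the histone total, against 34.4% in its own control, the mock extraction. After ManGn the H2B share was 35.6%, against 50.4% for water. The share of H2A was 16.4% with water and 16.6% with the mock extraction, but 27.6% with ManGn and 27.1% with fOS. With fOS the H2A sum itself was 26.4 against 24.2 in the mock extraction, while the sum of all members was 97.2 against 146.

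**Figure D2:**
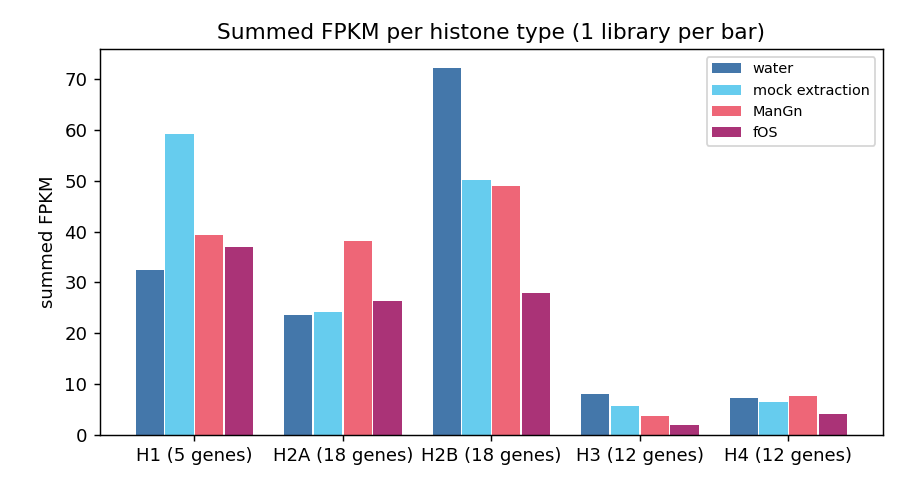
Summed FPKM of the genes of each histone type, with 1 bar per library (water, mock extraction, ManGn, fOS) on an axis that starts at 0. The fOS bar of H2B stands at 27.9, below 50.2 for its control, the mock extraction, which is itself below 72.3 for water. The ManGn bar of H2A stands at 38.1 above 23.6 with water.

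The 5 H1 genes encode linker histones, which bind the DNA between nucleosomes. Their summed FPKM was 32.4 with water, 59.3 in the mock extraction, 39.4 after ManGn and 36.9 after fOS. The mock extraction library was thus apart from the other 3. The ratio of reads was 0.621 for fOS against the mock extraction (0.532 to 0.724) and 1.83 for the mock extraction over water (1.56 to 2.16), so the direction for fOS turned with the control, to a ratio of 1.14 over water (0.952 to 1.36). Hist1h1c, which encodes H1.2, carried nearly all of this sum, at an FPKM of 31.24 with water, 56.50 in the mock extraction, 37.04 after ManGn and 35.75 after fOS. This came to 217, 401, 264 and 269 reads. Its log2 ratio was 0.24 for ManGn over water and -0.66 for fOS against the mock extraction, both short of 2-fold. Hist1h1b, which encodes H1.5 and shares no window with another member, was at 0.62, 2.00, 0.76 and 0.43 in the same order of libraries. It was at least 2-fold lower with fOS than with the mock extraction, at a log2 ratio of -1.99, on 3.56 against 15.6 reads (ratio 0.236, 0.0575 to 0.732). It was also higher in the mock extraction than with water, at a log2 ratio of 1.54. The other 3 H1 genes stayed under FPKM 1.

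H2A was the type whose summed level with each ligand lay above both controls. Its summed FPKM was 23.6 with water, 24.2 in the mock extraction, 38.1 after ManGn and 26.4 after fOS. The ratio of reads for ManGn was 1.62 over water (1.29 to 2.05) and 1.63 over the mock extraction (1.3 to 2.06). For fOS against the mock extraction it was 1.14 (0.889 to 1.46), an interval that includes 1.

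This rested on Hist2h2aa1, a core H2A gene of the smaller Hist2 cluster. Its FPKM was 8.37 with water, 9.88 in the mock extraction, 25.13 after ManGn and 17.02 after fOS. Both ligand libraries lay above both controls. The log2 ratio was 1.58 for ManGn over water, on 135 against 43.8 reads (ratio 2.99, 2.11 to 4.3), and 0.78 for fOS against the mock extraction, on 96.3 against 52.8 reads (1.71, 1.21 to 2.44). Its copy Hist2h2aa2, with the same coding sequence, was at 3.62, 1.2, 2.38 and 2.26 and did not follow this order. Since reads can move between the copies, their sum is the safer value, and it was 12 with water, 11.1 in the mock extraction, 27.5 after ManGn and 19.3 after fOS. The log2 ratio of the sum was 1.19 for ManGn over water and 0.79 for fOS against the mock extraction. Without Hist2h2aa1 the other 17 H2A genes summed to 15.2, 14.4, 13 and 9.34, with a ratio of reads of 0.834 for ManGn over water (0.589 to 1.18) and 0.688 for fOS against the mock extraction (0.47 to 1).

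Hist3h2a, a core H2A gene outside the Hist1 and Hist2 clusters, went the other way. Its FPKM was 3.57 with water, 5.96 in the mock extraction, 2.25 after ManGn and 1.95 after fOS, so both ligand libraries lay below both controls. It was at least 2-fold lower with fOS, at a log2 ratio of -1.56 on 10 against 28.9 reads (ratio 0.326, 0.142 to 0.688), and short of 2-fold with ManGn at -0.64, where 11 against 17 reads gave a ratio of 0.631 with an interval that includes 1 (0.267 to 1.43). Only 12.5% of its coding windows are shared with other members.

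The H2A genes of the Hist1 cluster gave scattered values. Hist1h2ah was at 3.93 with water, 4.10 with ManGn and 1.76 with fOS and was listed at 0 with the mock extraction. Hist1h2ap was listed at 0 with water and stood at 3.99 in the mock extraction, 2.71 after ManGn and 0.06 after fOS, while Hist1h2ao, with the same coding windows, was at 0, 0.81, 0 and 1.52. Such values alternate between 0 and several FPKM even between the controls. Hist1h2ad was listed at 2.12 with the mock extraction and at 0 elsewhere, and Hist1h2ag at 1.01 with water and at 0 elsewhere. Hist1h2ak was at 1.16 with water, 0 in the mock extraction, 0.24 after ManGn and 0.40 after fOS. Hist1h2ae, at 0.92, 0.28, 1.05 and 0.49, was the last of the 6 H2A genes with the highest means. A sum was taken over 11 H2A genes of the Hist1 cluster, each sharing at least 50% of its coding windows with another of them. Most of this scatter was then gone, at an FPKM of 6.55 with water, 7.2 in the mock extraction, 8.09 after ManGn and 3.83 after fOS. The log2 ratio of that sum was 0.30 for ManGn over water and -0.89 for fOS against the mock extraction, with no difference as large as 2-fold.

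H2B, the partner of H2A in the nucleosome, was the most abundant type with water and lower in each of the other libraries. The 18 genes summed to an FPKM of 72.3 with water, 50.2 in the mock extraction, 49.1 after ManGn and 27.9 after fOS. The ratio of reads was 0.608 for ManGn over water (0.548 to 0.673) and 0.509 for fOS against the mock extraction (0.446 to 0.58). The mock extraction over water gave 0.66 (0.597 to 0.73), which overlaps the interval for ManGn, and ManGn over the mock extraction gave 0.921 (0.823 to 1.03).

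Hist2h2be showed the steepest course of the well-measured genes. Its FPKM was 13.49 with water, 7.07 in the mock extraction, 4.90 after ManGn and 2.20 after fOS, or 360, 192, 134 and 63.4 reads. It lay 2-fold or more below the control with both ligands. The log2 ratio was -1.44 for ManGn over water (ratio of reads 0.363, 0.295 to 0.444) and -1.64 for fOS against the mock extraction (0.31, 0.229 to 0.414). Both ligand libraries also lay below both controls, although ManGn and the mock extraction differed by only -0.52 on the log2 scale, and the controls differed by -0.92. Its coding sequence shares no window with other members.

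Hist1h2bc had the highest FPKM of all members with water and ManGn, at 50.07 with water, 37.10 in the mock extraction, 37.41 after ManGn and 22.20 after fOS. This was 567, 429, 435 and 272 reads. The log2 ratio was -0.42 for ManGn over water and -0.74 for fOS against the mock extraction, both short of 2-fold, and the mock extraction and ManGn were nearly equal. It shares 97.9% of its coding windows with other members. The sum of 13 H2B genes of the Hist1 cluster that share windows by the same rule, Hist1h2bc included, was 57.7, 40.9, 43.1 and 25.7, with log2 ratios of -0.42 and -0.67.

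Other H2B genes were low and partly listed at 0. Hist1h2bj was listed at 0 with water and stood at 2.61 in the mock extraction, 4.09 after ManGn and 2.09 after fOS. Hist1h2bk stood at 3.20 with water and was listed at 0 in the other 3 libraries, and Hist1h2bl stood at 1.06 with water and was likewise listed at 0 elsewhere. Hist1h2bg was at 1.88, 0.23, 0.71 and 0.60, and passed the 2-fold limit downwards with ManGn, on 3.14 against 8.09 reads (ratio 0.365, 0.0624 to 1.52). Counting error alone thus covers a ratio of 1 for Hist1h2bg. Hist1h2ba, the testis-specific H2B gene, was at 0.47, 1.31, 0.87 and 0.

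H3 was low in every library and lowest with fOS. Its 12 genes summed to an FPKM of 8.05 with water, 5.65 in the mock extraction, 3.72 after ManGn and 1.98 after fOS, on 44.8, 30.9, 21.7 and 13 reads. The ratio of reads was 0.476 for ManGn over water (0.272 to 0.81) and 0.396 for fOS against the mock extraction (0.19 to 0.779). For the mock extraction over water it was 0.675 (0.413 to 1.09). The 3 H3 genes that reached FPKM 1 passed the 2-fold limit downwards with fOS against the mock extraction, as 6.41% of all genes did. Hist1h3d and Hist1h3g reached FPKM 1 only in controls, which favours such a difference, and with 1 added in place of 0.1 Hist2h3c1 and Hist1h3d fell short of 2-fold, at -0.95 and -0.90. Hist2h3c1 was at 4.35 with water, 2.04 in the mock extraction, 1.98 after ManGn and 0.57 after fOS. Its log2 ratio was -1.10 for ManGn over water and -1.68 for fOS against the mock extraction, while the mock extraction over water, at -1.06, was as low as ManGn. Hist1h3g was at 1.76, 1.38, 0.71 and 0, and Hist1h3d at 0.87, 1.12, 0.01 and 0.14, each on under 9 reads in every library. The sums over genes that share at least 50% of their coding windows with another of the sum kept the direction. The 3 genes of the Hist2 cluster summed to 4.53, 2.87, 2.38 and 1.12, with log2 ratios of -0.90 and -1.28, and the 9 genes of the Hist1 cluster to 3.52, 2.78, 1.34 and 0.86, with log2 ratios of -1.33 and -1.59. The Hist1 genes are not all close copies, as Hist1h3e shares 52.9% with its closest member. Their sums rest on 16.2, 13.1, 6.26 and 6.05 reads. Without Hist2h3c1 the ratio of reads was 0.516 (0.203 to 1.22) for ManGn and 0.472 (0.187 to 1.11) for fOS, so at this depth a difference was not detectable in the remaining 11 genes.

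H4, the partner of H3, rested on too few reads to show differences of the size seen in H1. The 12 genes summed to an FPKM of 7.2 with water, 6.44 in the mock extraction, 7.58 after ManGn and 4.11 after fOS. These sums rest on 27.2, 25.4, 30.2 and 16.9 reads, and both ratios had intervals that include 1 (1.08, 0.622 to 1.89, for ManGn over water and 0.642, 0.326 to 1.24, for fOS against the mock extraction). Hist1h4i was at 2.61, 3.52, 3.01 and 2.42. Hist4h4, which lies outside the clusters and shares no coding window, was at 2.33 with water, 1.72 in the mock extraction, 3.17 after ManGn and 1.31 after fOS. Neither reached a 2-fold difference for a ligand over its control. Hist2h4 stood at 1.26 with water and was listed at 0 in the other libraries.

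Counts of members were then set beside those of all genes. A gene was counted where its FPKM plus 0.1 differed at least 2-fold and its FPKM was at least 1 in 1 of the 2 libraries. With ManGn over water, 3 of the 25 members that could be counted were higher and 9 were lower, whereas 9.44% of the 11183 genes were higher and 7.37% lower. With fOS against the mock extraction, 1 member was higher and 9 were lower, against 2.67% and 6.41% of all genes. With the mock extraction over water, however, 5 members were higher and 9 lower, against 9.24% and 6.69%. The controls therefore differed at as many lower members as either ligand did from its control. Of the 9 lower members, 4 were listed at 0 with ManGn and 3 with fOS, and 6 were listed at 0 with the mock extraction in the comparison of the controls. A member that reached FPKM 1 only in the library where it was high had to differ, so these counts describe low values and carry no support for a change of the group.

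Against the other control, 3 members were higher and 4 lower for ManGn over the mock extraction (all genes 3.51% and 3.47%), and 3 were higher and 11 lower for fOS over water (14.1% and 14.3%). The comparisons that share a library are not independent of each other. The median log2 ratio of the 25 members was -0.42 for ManGn over water beside 0.05 for all genes, -0.37 for fOS against the mock extraction beside -0.02, and -0.42 for the mock extraction over water beside 0.07. Among the 12 members with a mean FPKM of at least 1, a cut-off chosen after seeing the data, the numbers higher were 3 with ManGn, 1 with fOS and 2 in the mock extraction over water, and the numbers lower were 2, 4 and 3. Of the 10683 genes at this cut-off, 9.24%, 2.42% and 8.99% were higher in the same order, and 6.37%, 6.08% and 5.68% were lower. The median of the 12 members for ManGn over water was 0.13, of the opposite sign to that of all 25 members.

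**Figure D3:**
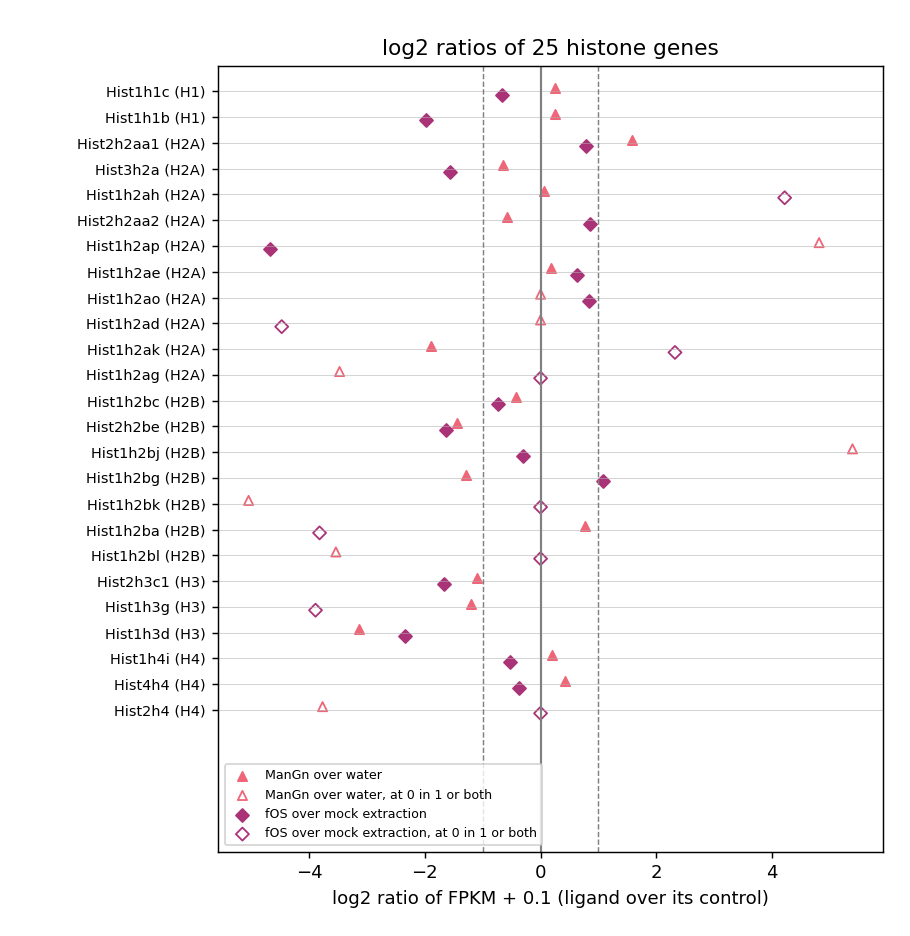
log2 ratios of FPKM plus 0.1 for 25 histone genes, with ManGn over water as triangles and fOS against the mock extraction as diamonds, open where a gene was listed at 0 in at least 1 of the 2 libraries, and dashed lines at 2-fold. The largest distances from 0 are mostly open symbols, whose size depends on the added 0.1, and Hist2h2be, Hist2h3c1, Hist1h3g and Hist1h3d lie left of the lower dashed line for both ligands, although Hist1h3d stayed under FPKM 1 with water and ManGn.

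Other genes of the histone supply are given for context. The replication-independent variants, which are made outside S phase too, had 10 of 15 listed genes at FPKM 1, of which 0 were higher and 3 were lower in each ligand comparison, where 7.37% of all genes were lower with ManGn and 6.41% with fOS. In the mock extraction over water 2 of the 10 were lower, H2afj and H2afv, beside 6.69% of all genes. H2afv was at 48.95 with water, 24.40 in the mock extraction, 9.05 after ManGn and 8.77 after fOS. Its log2 ratios were -2.42 for ManGn and -1.47 for fOS, and it was just past 2-fold lower in the mock extraction over water. H1f0, the linker histone of resting and differentiated cells, was at 228.39, 335.54, 127.85 and 70.62, with a log2 ratio of -0.84 for ManGn and -2.25 for fOS. H2afj was at 80.69, 32.65, 30.00 and 25.42, and was lower by -1.42 with ManGn over water but also by -1.30 in the mock extraction over water. H1fx was at 1.53, 2.33, 1.15 and 1.01, with a log2 ratio of -1.13 for fOS. H2afx, listed here although its transcript holds the stem-loop match, was named after its values were seen. It was at 122.85, 136.26, 59.44 and 78.36, with log2 ratios of -1.05 for ManGn and -0.80 for fOS. The most abundant variants, H3f3a and H2afz, which encode H3.3 and H2A.Z and were named after their values were seen, stayed within 2-fold in both.

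The 52 genes of DNA replication in S phase were all at FPKM 1 or more, and 0 of them was 2-fold lower in any comparison. With ManGn over water 11 were higher beside 9.44% of all genes, and with fOS against the mock extraction 1 beside 2.67%. With the mock extraction over water 15 were higher beside 9.24%. The median log2 ratio of the replication genes was 0.27, 0.29 and 0.70 in that order. For fOS over water it was 1.02, with 27 higher beside 14.1% of all genes. The median of the histone genes lay below that of all genes in these 4 comparisons, while that of the replication genes lay above it. For ManGn over the mock extraction the median of the replication genes turned, at -0.32 beside -0.02 for all genes. That of the histone genes was 0.00, with members listed at 0 in both libraries included. Among the 17 histone genes above 0 in both it was -0.219, still below the -0.025 of all such genes. The histone median depends on the filter, which kept members that reached FPKM 1 in any library. A mean FPKM of at least 1 was a cut-off chosen after seeing the data. With it the histone median was 0.13 for ManGn over water, above 0.06 for all genes. It stayed below for fOS against the mock extraction (-0.59 beside -0.02) and for the mock extraction over water (-0.09 beside 0.08). In both ligand comparisons the largest ratios of the replication genes were those of Ccne1 and Ccne2, the E-type cyclins of S-phase entry. Ccne2 was at 5.08 with water, 14.14 in the mock extraction, 16.41 after ManGn and 30.08 after fOS, and Ccne1 at 5.81, 15.72, 18.62 and 27.90. Pole2, a subunit of DNA polymerase epsilon, was at 4.01, 13.71, 9.37 and 14.21, and Mcm6, of the replicative helicase, at 31.29, 79.50, 70.31 and 114.24. The water library was thus the lowest for each of these 4 genes. The part of cell cycle state in the histone values was not tested.

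Of 25 measured genes that transcribe, process or degrade histone mRNA, 4 were higher and 3 lower with ManGn over water, and 1 was higher and 1 lower with fOS against the mock extraction. The controls differed alike, with 4 higher and 2 lower in the mock extraction over water, and 0 reached 2-fold for ManGn over the mock extraction. Shares of all genes were 9.44% higher and 7.37% lower for ManGn over water, and 2.67% and 6.41% for fOS. They were 9.24% and 6.69% for the mock extraction over water, and 3.51% and 3.47% for ManGn over the mock extraction. The cyclins above are 2 of the 4 higher with ManGn over water. Casp8ap2, a component of histone locus bodies, was at 1.87 with water, 7.35 in the mock extraction, 6.95 after ManGn and 9.74 after fOS, lower with water than in the other 3. Zfp473, which encodes a zinc finger protein of the U7-dependent 3′ processing machinery, was at 1.58, 1.04, 0.59 and 0.15, with log2 ratios of -1.28 and -2.19. Slbp itself, named after its values were seen, was at 26.07, 38.43, 31.34 and 51.56, within 2-fold in both ligand comparisons. Of 22 histone chaperones and deposition factors, 2 were higher with ManGn over water, Mcm2 at 43.02 against 19.52 and Hira at 11.26 against 5.30, and 0 were lower. Both stood higher still in the mock extraction, at 50.38 and 12.38, where 3 of the 22 were 2-fold higher than with water, beside 9.24% of all genes. For ManGn over the mock extraction 0 of the 22 reached 2-fold, beside 3.51% of all genes higher and 3.47% lower. The share of all genes higher with ManGn over water was 9.44%. With fOS against the mock extraction 0 of the 22 reached 2-fold, with a median log2 ratio of 0.17.

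**Figure D4:**
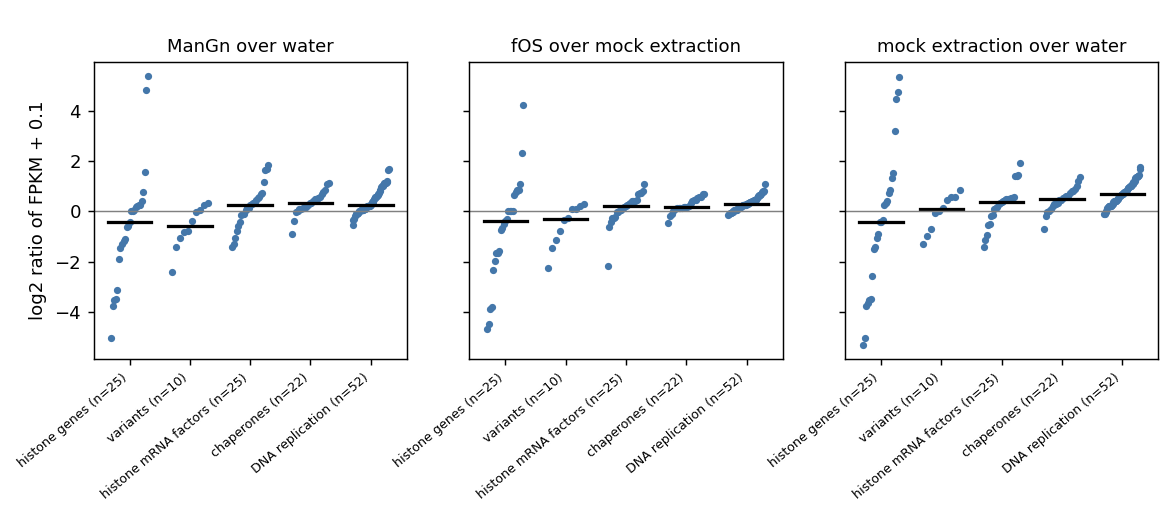
log2 ratios of FPKM plus 0.1 in 3 comparisons, with 1 point per gene sorted within each list and a black line at the median, for 25 histone genes, 10 histone variants, 25 factors of histone mRNA synthesis, processing and decay, 22 chaperones and 52 DNA replication genes. The histone genes spread most widely, with medians of -0.42, -0.37 and -0.42, while the medians of the replication genes are 0.27, 0.29 and 0.70. The medians of the histone genes depend on the filter on low FPKM.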

How the data were processed

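RNA-seq of RAW264.7 cells gave 4 libraries, 1 per condition. FPKM per gene were made by the authors with RSEM and deposited in 1 table. The RSEM version, the aligner, the RNA selection, the genome build and the annotation were not given in the sources used here. A second sheet holds the same FPKM, and further sheets hold the authors' own ratios between ligand and control, which were not used.

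Members were taken by symbol. The log2 ratio was log2 of FPKM plus 0.1 over FPKM plus 0.1. A gene entered the counts if any of the 4 libraries reached FPKM 1, and it was counted at 2-fold if either library compared reached FPKM 1. The members, the 4 context lists and the settings were chosen with earlier results of these data known. Members at FPKM 1 were named, up to 6 per type by mean FPKM, with every member counted in a ligand comparison, and up to 4 counted genes per list. Genes that the rule does not name are said to have been chosen with their values in view, apart from Hist1h2ao, Hist3h2bb-ps and the genes named for their sequence alone.

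Depth was estimated from low FPKM of genes with 1 transcript, with 40 nt taken off each length. In each library 68% to 70.6% of 429 to 477 values lay within 0.1 of a whole read, against 23.1% to 26.2% with lengths shuffled, so the read numbers are approximate. Member lengths came from RefSeq for 60 genes and GENCODE M21 for 5, and need not be those behind the FPKM. Both the depth estimate and the 2-fold count were tested on simulated data. The simulated count gave all genes the same length, longer than that of most members, and changed no gene of low FPKM. It therefore gives no error rate for the histone genes. Python 3.11.15, numpy 2.4.6, pandas 2.3.3, scipy 1.17.1 and matplotlib 3.10.9 were used. The alternatives were another pseudocount or filter, centring, scaling and the other control.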

Additional observations from a re-analysis of the deposited data

Results flagged for a closer look

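Hist1h2ap went 2-fold in opposite directions with the ligands, each over its own control. It was listed at 0 with water and at an FPKM of 2.71 with ManGn, and stood at 3.99 with the mock extraction and 0.06 with fOS. With 0.1 added, the log2 ratio was 4.81 for ManGn over water, a size set by the added 0.1, and -4.68 for fOS over the mock extraction. The difference was not tested. The controls differed as widely, at 0 and 3.99, and Hist1h2ao shares all of its coding windows.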

How the results depend on the processing

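No paired analysis was possible because each condition has 1 library. Adding 0.01 in place of 0.1, centring on the median of all genes and scaling to the same upper quartile moved no count of members by over 1.5 times, and no median or sum by more than 0.5 times the width of the counting interval of the sum (that of all members for medians). With no filter on low FPKM, 11 members were higher and 17 lower for ManGn over water, 12 and 16 for fOS against the mock extraction, and 12 and 19 for the mock extraction over water, with all 3 medians at 0.000. With FPKM of at least 5, which leaves 5 members and no sum for H3 or H4, 1 was higher and 1 lower with ManGn, 0 and 2 with fOS, and 0 and 0 in the mock extraction. The median was then -0.74 for fOS against the mock extraction and 0.24 for the mock extraction over water, and the H2A sum for ManGn over water was 1.19. Shares of all genes with no filter or at FPKM 5 were not computed. With 1 added, 5 members were lower with ManGn and 3 higher in the mock extraction, and the medians were -0.24 for fOS against the mock extraction and -0.29 for the mock extraction over water. Over the other control, 4 members were lower with ManGn, with a median of 0.000, and 3 were higher with fOS, with a median of -1.11. The log2 ratio of the sum was then -0.59 for H1 and -0.031 for H2B with ManGn, and 0.19 for H1 and -1.37 for H2B with fOS. Over the other control the direction turned for Hist1h2ap (-0.54), Hist1h2ak (1.77) and Hist1h2bg (1.29) with ManGn, and for Hist1h2ap (0.68), Hist1h2ah (-1.11), Hist1h2ak (-1.33) and Hist1h2bg (-1.50) with fOS, each low or listed at 0 in a control. The sign also turned for genes short of 2-fold over their own control, as for Hist1h1c (-0.61 with ManGn, 0.19 with fOS), Hist1h1b (-1.29 with ManGn) and Hist2h2aa2 (0.93 with ManGn, -0.66 with fOS). With a mean FPKM of at least 1, chosen after seeing the data, 2 members were lower with ManGn, 4 with fOS and 3 in the mock extraction, where 2 were higher, and the medians were 0.13, -0.59 and -0.09. Depth limits most members to under 20 reads, and values of near-identical copies depend on how reads were divided.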
